A study of Mus musculus with 23 samples.

Results

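GL261 is a carcinogen-induced glioma line of C57BL/6 mice, and the transcriptome of GL261 tumors grown in mouse brain was measured here in 2 forms of sample. The first was the bulk ex vivo tumor, excised and lysed whole, from GL261-luc2 cells that carry firefly luciferase (4 libraries, named here by their sample numbers 405, 412, 414 and 417). The second was tumor cells of a subline that also carries a surface reporter, taken from dissociated tumors of adherent-cultured cells by magnetic beads against that reporter (4 libraries, 81, 82, 83 and 84). The 8 libraries were chosen by line and sample form from the 23 of the series. All hosts were female albino C57BL/6 mice of 7 to 10 weeks, injected in the right striatum with 100000 cells for the bulk tumors and 200000 cells for the sorted ones. Bulk tumors were harvested after 22 to 24 days; the harvest day of the sorted tumors was not given in the sources used here. The study's text counts its replicates as mice, while the labels do not tie each library to an animal; p-values measure the spread between these libraries.

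The comparison of bulk with sorted libraries coincides with several others. Cohort, subline, number of cells implanted, dissociation and bead selection, sequencer (HiSeq or NextSeq), read length (pairs of 150 or 37 bases) and depth all changed together, and their parts in any difference below cannot be told apart. The sources disagree on the library kit, which may also have differed. Bulk libraries held 34622622 to 42608400 estimated reads and sorted libraries 7599935 to 10548568. Spearman correlations over the genes tested ran from 0.826 to 0.988 among the bulk tumors and from 0.953 to 0.991 among the sorted libraries. Bulk tumor 405 and sorted library 81 stood apart from their groups, as described with the marker lists. Levels are read counts relative to library size, scaled by TMM (CPM), and values are listed in the order 405, 412, 414, 417 for bulk tumors and 81, 82, 83, 84 for sorted cells; log2 fold changes are bulk over sorted with their standard errors.

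A tumor excised from the brain can hold tumor cells, neurons and glia within or beside it, vessels, and blood-borne and resident myeloid cells. Neurons carry synaptic and neurofilament genes, astrocytes Gfap and glutamate transporters, and oligodendrocytes the genes of myelin, so that transcripts of a cell type report its presence in a mixed sample. Transcription factors of the oligodendrocyte lineage such as Olig2 and Sox10 are used by glial progenitors and by many gliomas. Positive selection of a reporter that only implanted cells carry is meant to leave the host behind.

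Of 16265 genes tested, 3270 (20.1%) were higher and 2349 (14.4%) were lower in bulk tumors than in sorted cells at an adjusted p under 0.05, with a median log2 fold change of 0.01 over all genes. These shares are the background against which the counts of each list are to be read. Without bulk tumor 414 or 417 the lower genes numbered 1335 and 1479. Where 2 quantifications of the same libraries could be compared, 744 of 15599 genes differed by more than 1 in log2 fold change, and 256 of these were pseudogenes. By the rule for extreme genes, all 10 of the lowest genes were pseudogenes, and they are not described further. The extremes given instead are protein-coding genes called in both quantifications with folds within 1 of each other, a selection made after their values were seen.

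Genes of neurons set the upper end of the comparison. Snap25, a membrane protein of the synaptic vesicle fusion machinery, had 35.2, 712, 504 and 280 CPM in bulk tumors, against 1.6, 8.08, 8.96 and 2 CPM in sorted cells. All bulk tumors lay above all sorted libraries, with a log2 fold change of 6.19 ± 1.01 (adjusted p = 0.00294). Of the 18 neuronal markers, 16 were higher in bulk and none lower, with a median log2 fold change of 5.21. Syp, which encodes the vesicle protein synaptophysin, rose by 6.70 ± 0.92 (adjusted p = 0.00187). Rbfox3, the RNA-binding protein known as NeuN, had 8.62, 120, 76.9 and 52.7 CPM in bulk tumors and 0.228, 2.23, 1.95 and 0.698 CPM in sorted cells, a log2 fold change of 5.64 ± 0.90 (adjusted p = 0.00286). In both genes the lowest bulk value belonged to tumor 405 and the highest to tumor 412. In samples of this kind, fewer cells of a type and less RNA per cell cannot be told apart.

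A neuropeptide gene was among the highest folds of the selection. Tac1, the precursor of substance P, had 1.52, 69, 1.75 and 12.7 CPM in bulk tumors and no read in any sorted library. Its mean in bulk was at least 62.1-fold higher than 3 counts per sorted library, a floor that covers counting error only. The call of Tac1 ended without sorted library 81 (adjusted p = 0.0527).

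Bulk tumors differed in which neuronal markers were high. All 14 markers of striatal projection neurons were higher in bulk, although 9 were without sorted library 81. Ppp1r1b, a dopamine-regulated phosphatase inhibitor of these neurons, had 15.2, 352, 23.5 and 71 CPM in bulk tumors and 0.684, 3.83, 2.99 and 1.3 CPM in sorted cells (log2 fold change 5.69 ± 1.16, adjusted p = 0.0065). Drd1, a dopamine receptor, had 2.9, 68.5, 2.72 and 13.4 CPM in bulk tumors and 0 to 0.39 CPM in sorted cells (7.20 ± 1.46, adjusted p = 0.00644). For both genes tumor 412 stood far above the other bulk tumors. Markers of cortical and hippocampal excitatory neurons followed another order, with 11 of 14 higher and 1 lower. Slc17a7, the vesicular glutamate transporter of these cells, had 26, 231, 314 and 187 CPM in bulk tumors and 3.53, 4.89, 9.61 and 3.39 CPM in sorted cells (5.12 ± 0.75, adjusted p = 0.00226), and Neurod6, a transcription factor of the same cells, rose by 8.11 ± 1.31 (adjusted p = 0.00291). Here tumor 414 had the highest level. The exception was Rorb, a nuclear receptor, with 53.1, 32.6, 54.6 and 45.1 CPM in bulk tumors and 126, 83.4, 104 and 136 CPM in sorted cells; it fell by 1.31 ± 0.22 on the log2 scale (adjusted p = 0.0032). Of 12 interneuron markers, 10 were higher and none lower. Gad1, the main GABA-producing enzyme, rose by 7.16 ± 1.23 (adjusted p = 0.00349), and the neuropeptide Sst by 7.15 ± 1.10 (adjusted p = 0.00254).

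**Figure D1:**
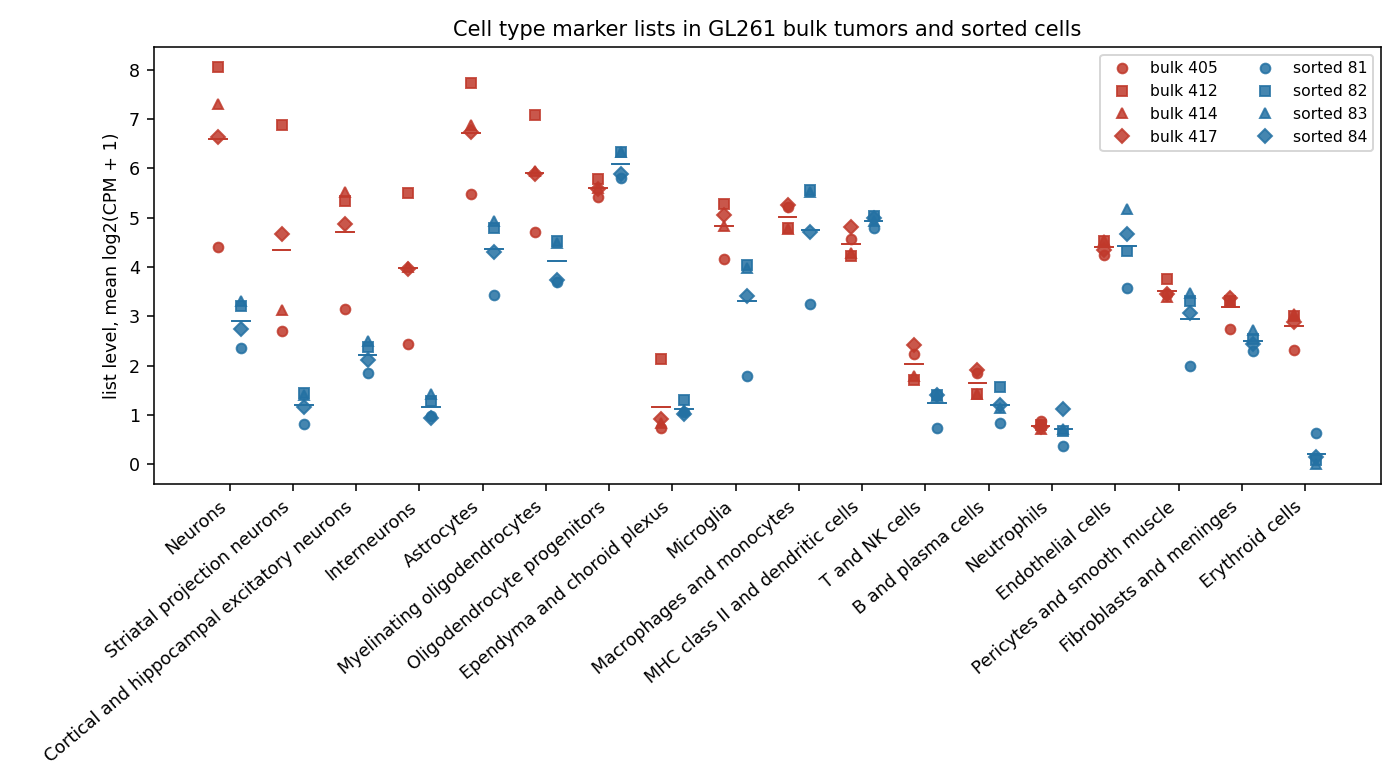
Levels of 18 cell type marker lists, given as log2(CPM + 1) averaged over the genes in a list, in 4 bulk GL261 tumors (red, left) and 4 sorted GL261 libraries (blue, right), with 1 symbol per library and a line at the group mean. The neuronal list ran from 4.41 to 8.05 in bulk and from 2.35 to 3.30 in sorted libraries, while the progenitor list ran from 5.42 to 5.79 in bulk and from 5.81 to 6.34 in sorted libraries.

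List levels, log2(CPM + 1) averaged over the genes in a list, put the bulk tumors in a repeated order. The neuronal level was 4.41, 8.05, 7.30 and 6.63 in bulk tumors, against 2.35, 3.20, 3.30 and 2.74 in sorted cells. Tumor 405 was the lowest bulk tumor in the neuronal, astrocyte, myelin and microglial lists, and tumor 412 was the highest in the same 4 lists. The mitotic list ran the other way, with 7.01, 5.61, 6.61 and 6.60 in bulk tumors and 6.49, 6.40, 6.24 and 6.58 in sorted cells. Among sorted cells, library 81 was the lowest in the neuronal, astrocyte, microglial, macrophage, endothelial and pericyte lists.

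Astrocyte markers were higher in bulk for 11 of 16 genes and lower for 1. Gfap, the intermediate filament of astrocytes, had 332, 1169, 693 and 699 CPM in bulk tumors and 28.6, 92.6, 204 and 64.5 CPM in sorted cells, with no overlap between the groups (2.86 ± 0.61, adjusted p = 0.00768). Aqp4, the water channel of astrocyte end-feet, rose by 5.14 ± 0.63 (adjusted p = 0.00117), and Slc1a3, a glutamate transporter, by 3.73 ± 0.62 (adjusted p = 0.00312). S100b, a calcium-binding protein also made by oligodendrocyte lineage cells, had 68.5, 95.5, 112 and 80 CPM in bulk tumors and 160, 193, 156 and 267 CPM in sorted cells, and it fell by 1.16 ± 0.23 on the log2 scale (adjusted p = 0.0056). Its fold change in CT2A, the other glioma line of the series, was 1.68 ± 0.31, and the difference between the lines passed the test (adjusted p = 5.40e-04).

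Within the oligodendrocyte lineage the mature myelin list and the progenitor list differed, with exceptions in both. For mature myelin, 10 of 15 genes were higher in bulk and none lower, although 7 were higher without sorted library 81 or 84. Mag, a myelin adhesion protein, had 28.6, 161, 68.1 and 65 CPM in bulk tumors and 0.912, 3.83, 3.12 and 2.29 CPM in sorted cells (4.96 ± 0.63, adjusted p = 0.00134). Mbp, the main protein of compact myelin, had 266, 1558, 836 and 680 CPM in bulk tumors and 124, 279, 293 and 172 CPM in sorted cells, so that tumor 405 lay below sorted libraries 82 and 83. Its log2 fold change was 1.91 ± 0.51 (adjusted p = 0.0189, and 0.0577 at most with 1 library left out, the call ending without sorted library 81 or 84). Ermn, a cytoskeletal protein of mature oligodendrocytes, rose by 4.65 ± 0.77 (adjusted p = 0.00304). Mog, a surface protein of the myelin sheath, had 6.54, 51.8, 19 and 19.7 CPM in bulk tumors and 30.3, 41.4, 35.2 and 42.1 CPM in sorted cells, and its fold change of -0.65 ± 0.51 did not pass the test (adjusted p = 0.352). Bulk tumor 412 decided this: without it Mog fell, at an adjusted p of 0.0329, as the 1 lower member of the myelin list.

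More progenitor genes were lower than higher in bulk. Of 12 markers of oligodendrocyte progenitors, 6 were lower in bulk and 2 were higher, with a median log2 fold change of -0.90. Sox10, a transcription factor of the whole lineage, had 526, 214, 441 and 479 CPM in bulk tumors and 1219, 894, 822 and 828 CPM in sorted cells, with no overlap (-1.22 ± 0.29, adjusted p = 0.0123). Olig1 fell by 1.30 ± 0.19 (adjusted p = 0.00221) and Olig2 by 0.85 ± 0.20 on the log2 scale (adjusted p = 0.0126); both are helix-loop-helix factors that specify the lineage. Gpr17, a receptor of progenitors about to differentiate, had 31.1, 49.4, 31.4 and 36.9 CPM in bulk tumors and 104, 777, 758 and 951 CPM in sorted cells (-4.15 ± 0.61, adjusted p = 0.00221). Its lowest sorted value, in library 81, still lay above every bulk tumor. Cspg4, the NG2 proteoglycan, had 63.2, 26, 29.5 and 21.4 CPM in bulk tumors and 456, 235, 264 and 281 CPM in sorted cells (-3.18 ± 0.39, adjusted p = 0.00123), and Bcas1, a gene of newly formed oligodendrocytes, fell by 1.06 ± 0.18 on the log2 scale (adjusted p = 0.00325). The members higher in bulk were Matn4, a matrix protein, and Neu4, a sialidase, at 4.60 ± 0.51 and 4.21 ± 0.85 (adjusted p = 6.84e-04 and 0.00617).

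The same list took the opposite direction in CT2A, for which 10 of 12 progenitor markers were higher in bulk tumors than in sorted cells and 2 lower, against a background of 26.9% higher and 23% lower among 14701 genes. CT2A and GL261 share no library. Tested as a difference between the lines, 9 of the 12 markers had a more negative fold change in GL261 than in CT2A, where 5.8% of 15845 genes did. For Sox10 the fold change was -1.22 in GL261 and 4.99 in CT2A, with a difference of -6.06 (adjusted p = 1.63e-05), and for Gpr17 the difference was -9.63 (adjusted p = 4.18e-05). In sorted CT2A cells Sox10 was at 0.867, 0.461 and 0.649 CPM, while in the 3 sorted libraries of neurosphere-derived GL261 tumors it was at 576, 644 and 705 CPM. The last values are of the same subline and sort as the sorted GL261 cells.

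**Figure D2:**
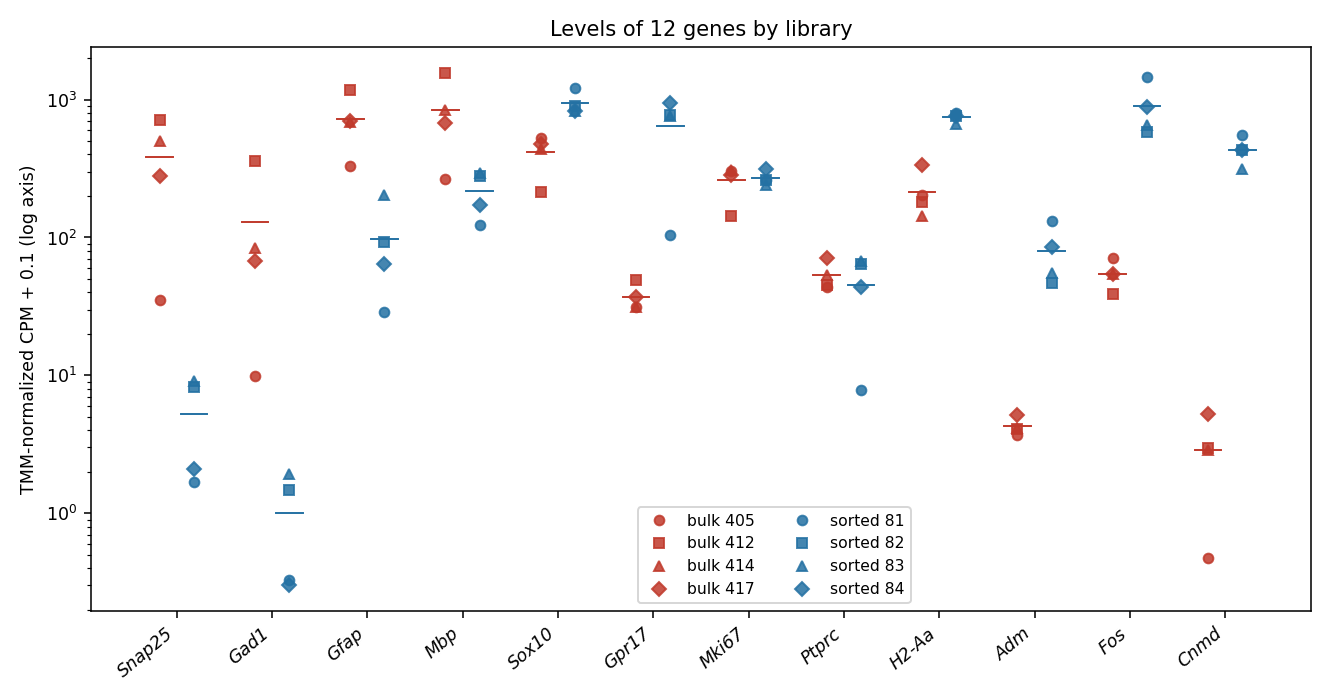
CPM of 12 genes, plus 0.1 and on a log axis, in 4 bulk GL261 tumors (red, left) and 4 sorted GL261 libraries (blue, right), with 1 symbol per library and a line at the group mean. Snap25 and Gad1 were higher in every bulk tumor, Gpr17, Adm, Fos and Cnmd were higher in every sorted library, and Mki67 and Ptprc overlapped.

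Genes of GL261 tumor cells were also chosen without the 8 libraries. The rule took genes with at least 10 CPM in every neurosphere-derived sorted GL261 library and at most 0.5 CPM in every bulk and sorted CT2A library, and it found 23 genes. In bulk GL261 tumors 18 of the 23 were lower than in sorted GL261 cells and none higher, with a median log2 fold change of -1.68. The median level in a bulk tumor, as a percent of the mean in sorted cells, was 52.4% in tumor 405, 15.7% in tumor 412, 37% in tumor 414 and 33.8% in tumor 417. The order of the tumors was the reverse of that in the neuronal list at both ends. The genes were picked from tumors of the reporter subline, so that the share of tumor RNA and the subline cannot be told apart.

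Single genes of this set spread around the median. Xlr3c, an X-linked gene of a lymphocyte-regulated family, had 66.4, 26.8, 51.9 and 60.2 CPM in bulk tumors and 88.7, 84.7, 74.8 and 97.3 CPM in sorted cells (-0.79 ± 0.26, adjusted p = 0.0444), a call that ended without bulk tumor 414 or 417 or any 1 of the sorted libraries (adjusted p up to 0.105). Cytl1, a secreted cytokine-like protein, had 23.2, 4.01, 26.5 and 6.23 CPM in bulk tumors and 69.9, 79.3, 59.6 and 60.9 CPM in sorted cells (-2.21 ± 0.56, adjusted p = 0.0164), and Rfx6, a transcription factor, fell by 2.46 ± 0.39 on the log2 scale (adjusted p = 0.00284). C7, a terminal complement component, had 1.41 to 2.1 CPM in bulk tumors and 10.4 to 25.7 CPM in sorted cells (-3.40 ± 0.39, adjusted p = 8.52e-04). At the far end, Gtsf1, a factor of the piRNA pathway in germ cells, had 0.0999, 0, 0.159 and 0.0795 CPM in bulk tumors and 31.5, 18.4, 22.9 and 24.3 CPM in sorted cells (-8.15 ± 0.65, adjusted p = 1.75e-04). Tex19.1, another germ cell gene, had 33.5, 17.5, 27.3 and 32.1 CPM in bulk tumors and 26.4, 24.4, 22.6 and 22.2 CPM in sorted cells (0.17 ± 0.22, adjusted p = 0.59).

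**Figure D3:**
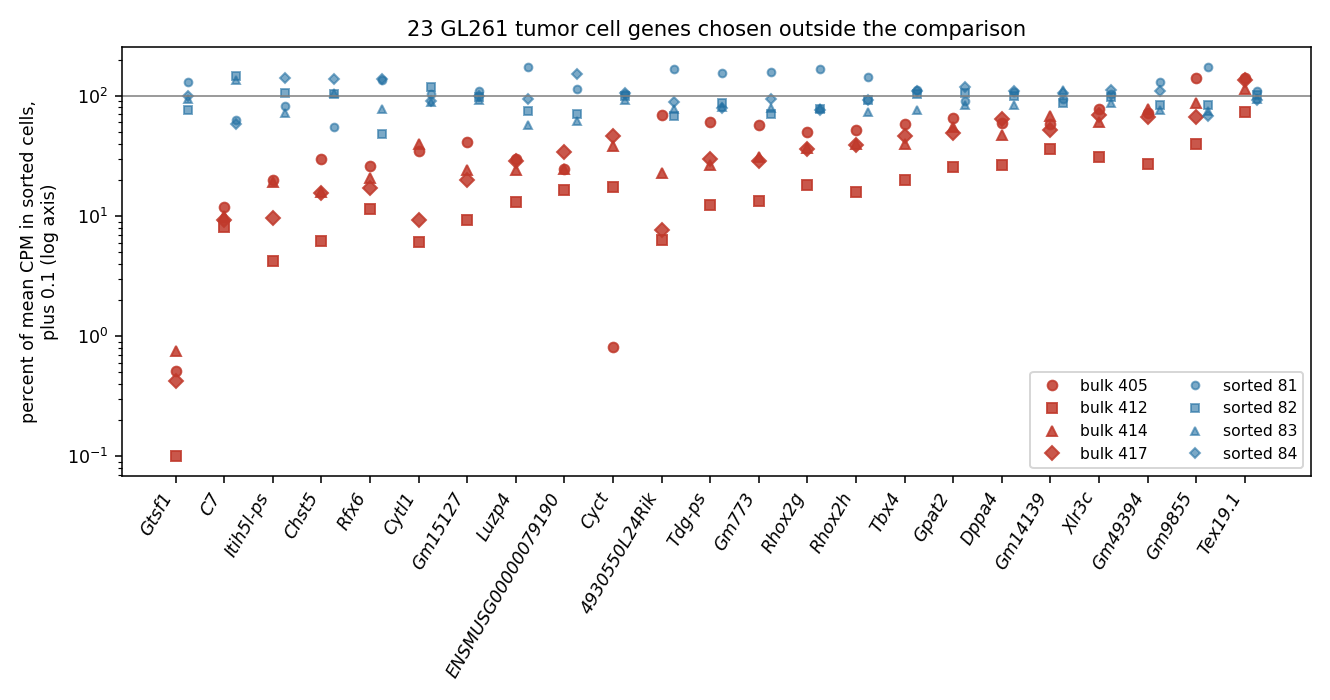
Level of each of 23 GL261 tumor cell genes in every library as a percent of its mean CPM in sorted GL261 cells, plus 0.1 and on a log axis, with bulk tumors in red and sorted libraries in blue beside them. Tumor 412 lay lowest among bulk tumors for most genes (median 15.7%), Gtsf1 stood far below the rest, and Tex19.1 did not differ beyond the spread.

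Other genes high in sorted cells were near 0 in bulk tumors. Cnmd, a cartilage protein that restrains vessel growth, had 0.375, 2.87, 2.8 and 5.14 CPM in bulk tumors and 557, 429, 313 and 429 CPM in sorted cells (-7.31 ± 0.72, adjusted p = 4.18e-04). Neurosphere-derived sorted GL261 cells had 329, 425 and 417 CPM of it, and no CT2A library exceeded 0.924 CPM. Acan, the cartilage proteoglycan aggrecan, had 0.799, 2.46, 2.01 and 0.689 CPM in bulk tumors and 57.1, 59.6, 51.6 and 48.9 CPM in sorted cells (-5.22 ± 0.45, adjusted p = 2.64e-04). Impg1, a proteoglycan of the retinal matrix, fell by 6.50 ± 0.96 (adjusted p = 0.00226), Grap2, an adaptor of T cell receptor signaling, by 5.74 ± 0.22 (adjusted p = 4.42e-06), and Rgs1, a regulator of G protein signaling, by 4.48 ± 0.33 on the log2 scale (adjusted p = 1.01e-04). These 5 genes were picked under a rule that required no overlap between the groups, so their lack of overlap is not a result. Among all genes tested, 16.3% lay lower in every bulk tumor than in any sorted library. The highest level of these 5 genes in a bulk tumor was 5.14 CPM, of Cnmd. Rgs1 was lower in bulk in CT2A too, at a log2 fold change of -3.84 ± 0.25 (adjusted p = 7.11e-05). Its difference between the lines, -0.48, did not pass the test (adjusted p = 0.497). Grap2 was at 0.46 ± 0.35 in CT2A (adjusted p = 0.311), and Cnmd, Acan and Impg1 were under the minimum count there. The parts of the subline and of the sort were not tested.

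Host genes chosen outside the comparison gave the opposite picture. Genes with at least 10 CPM in every bulk CT2A tumor and at most 0.5 CPM in every sorted CT2A and neurosphere-derived GL261 library numbered 29, of which 27 were tested, 25 were higher in bulk GL261 tumors and none was lower. For 15 of the tested genes the 2 quantifications were within 1 of each other on the log2 scale, all 15 were higher in bulk, and their median log2 fold change was 8.12. Among the other tested genes with a fold in the other quantification, that fold ran from -3.62 for Gadl1 to 5.93 for Gm10359. Their main folds were 5.37 and 13.27. The rule itself sets bulk libraries against sorted ones, so host origin cannot be told apart from cohort, read length and sort. The 15 genes included Sez6, Chga and Sst. Sez6, which acts in dendrite growth, had 9.72, 193, 38.9 and 48.6 CPM in bulk tumors and 0, 0.531, 0.39 and 0.0998 CPM in sorted cells (8.12 ± 1.18, adjusted p = 0.00221). Chga, a protein of secretory granules, rose by 7.14 ± 1.09 (adjusted p = 0.00254), and Trank1, a large gene expressed in brain, by 8.98 ± 1.08 (adjusted p = 0.00106).

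Myeloid markers were present in both forms of sample. Of 12 microglial markers 5 were higher in bulk and none lower (median log2 fold change 1.17), a count of 2 without bulk tumor 417 or sorted library 84. Tmem119, a surface protein of microglia, had 68.3, 95.1, 104 and 93.6 CPM in bulk tumors and 2.39, 35.6, 27.4 and 19.8 CPM in sorted cells (2.05 ± 0.60, adjusted p = 0.0281). That call ended without bulk tumor 414 or 417 or sorted library 83 or 84 (adjusted p up to 0.0732), while Siglech, a lectin of microglia, kept its call in each of these fits at 2.92 ± 0.73 (adjusted p = 0.015). Of 21 macrophage and monocyte markers 2 were higher and 2 lower; none was higher without bulk tumor 414 or sorted library 83 or 84, and 1 was lower without bulk tumor 412, 414 or 417 or sorted library 82 or 83. Ptprc, the leukocyte antigen CD45, had 43.7, 45.3, 53.2 and 70.3 CPM in bulk tumors and 7.75, 63.6, 67 and 43.5 CPM in sorted cells, and its fold change of 0.19 ± 0.52 did not pass the test (adjusted p = 0.804). Sorted library 81 had the least of it, and the values of the other sorted libraries, 43.5 to 67 CPM, overlapped those of the bulk tumors. Cd14, a receptor for endotoxin, fell by 2.20 ± 0.19 on the log2 scale (adjusted p = 2.64e-04), with 10.9 to 18.5 CPM in bulk tumors and 66.9 to 75.4 CPM in sorted cells.

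MHC class II genes were lower in bulk tumors. Of 14 tested members of the class II and dendritic cell list 7 were lower and 2 higher, with a median log2 fold change of -1.01. H2-Aa, an alpha chain of class II, had 203, 180, 142 and 336 CPM in bulk tumors and 801, 762, 668 and 754 CPM in sorted cells (-1.83 ± 0.27, adjusted p = 0.00221). Cd74, the invariant chain that guides class II to endosomes, had 739, 487, 401 and 953 CPM in bulk tumors and 1654, 1702, 1508 and 1739 CPM in sorted cells (-1.39 ± 0.28, adjusted p = 0.00605), and H2-Eb1 and H2-DMa fell by 1.90 ± 0.27 and 1.68 ± 0.28 on the log2 scale (adjusted p = 0.0021 and 0.00315). Sorted library 81 had class II levels like those of libraries 82 to 84, while the macrophage list level was 5.21, 4.80, 4.78 and 5.26 in bulk tumors and 3.25, 5.56, 5.51 and 4.71 in sorted cells, lowest in library 81. The members higher in bulk were the dendritic cell genes Flt3 and Ccr7, a growth factor receptor and a homing receptor, at 3.42 ± 0.69 and 2.57 ± 0.54 (adjusted p = 0.00624 and 0.00747). Both were low, at 2.84 to 6.53 CPM in bulk tumors and 0 to 1.25 CPM in sorted cells.

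Of 16 genes of class I presentation 3 were lower in bulk and none higher, with a median of -0.60, and none was lower without bulk tumor 412 or 414. The number lower was 6 without bulk tumor 405, 6 with an offset for transcript length, 7 in DESeq2 and 10 with all 6 groups in 1 fit, and 1 with upper-quartile scaling, with no minimum count, or without sorted library 82 or 84. H2-D1, a class I heavy chain, had 1028, 811, 982 and 1273 CPM in bulk tumors and 2816, 1613, 1478 and 1632 CPM in sorted cells (-0.92 ± 0.26, adjusted p = 0.0249, and up to 0.075 with bulk tumor 412 or 414 left out). Psmb8, an immunoproteasome subunit, and Nlrc5, the class I transactivator, were at -0.79 ± 0.25 and -0.81 ± 0.26 (adjusted p = 0.038 and 0.0413), and with 1 library left out their adjusted p ran up to 0.112 and 0.11. H2-K1 and B2m, the other classical heavy chain and the light chain, were at -0.80 ± 0.28 and -0.64 ± 0.26 (adjusted p = 0.0575 and 0.0898). The peptide transporter genes Tap1 and Tap2 were at -0.86 ± 0.30 and -0.50 ± 0.23 (adjusted p = 0.0546 and 0.127), and their loading partners Tapbp, Calr, Canx and Pdia3 at -0.71, -0.16, -0.47 and -0.54 (adjusted p from 0.0596 to 0.507). The remaining members, the proteasome genes Psmb9, Psmb10, Psme1 and Psme2 and the trimming peptidase Erap1, were at -0.43, -0.56, -0.79, -0.52 and -0.02 (adjusted p from 0.0564 to 0.942).

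Among 22 tested checkpoint ligands, receptors and related enzymes 3 were lower and 2 higher in bulk, with 1 lower without bulk tumor 414 or sorted library 84. Cd274, the ligand PD-L1, had 69.2, 58.6, 55.6 and 93.7 CPM in bulk tumors and 202, 100, 93.2 and 131 CPM in sorted cells, where tumor 417 overlapped sorted library 83 (-0.96 ± 0.28, adjusted p = 0.0284). The call ended without bulk tumor 405, 412 or 414 or sorted library 84 (adjusted p up to 0.0904). Cd47, which signals to macrophages not to engulf, had 190, 175, 147 and 163 CPM in bulk tumors and 427, 318, 337 and 334 CPM in sorted cells (-1.11 ± 0.16, adjusted p = 0.00222). Its receptor Sirpa was at 1.49 ± 0.56 (adjusted p = 0.0677). Lgals9, a galectin, was at -0.70 ± 0.20 (adjusted p = 0.026), a call that ended without bulk tumor 414 or 417 or sorted library 84 (adjusted p up to 0.0584). Nt5e, the ectoenzyme CD73, had 13.4, 15.5, 14.8 and 8.85 CPM in bulk tumors and 2.17, 3.83, 5.58 and 6.19 CPM in sorted cells (1.53 ± 0.37, adjusted p = 0.013). The call of Tnfrsf18, the receptor GITR, at 2.02 ± 0.49 (adjusted p = 0.0134), was absent in the other quantification, at 0.90 (adjusted p = 0.174). The T cell receptors Pdcd1, Ctla4, Lag3, Tigit and Havcr2 were at 0.41, -0.66, 0.75, -0.78 and -0.07 (adjusted p from 0.179 to 0.929).

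Lymphocyte transcripts were low in both forms of sample. The T and NK cell list had 4 of 16 members higher in bulk and none lower, with 1 higher without bulk tumor 417 or sorted library 84. Gzmb, a cytotoxic granule protease, had 21.6, 6.9, 8.12 and 27.2 CPM in bulk tumors and 0.342, 2.76, 5.32 and 2.89 CPM in sorted cells (2.46 ± 0.73, adjusted p = 0.0287, and up to 0.0823 with bulk tumor 417 or sorted library 82 or 84 left out). Cd3e, a chain of the T cell receptor complex, was at 1.43 to 2.2 CPM in bulk tumors and 0.456 to 2.99 CPM in sorted cells (0.23 ± 0.53, adjusted p = 0.767). Of 7 tested B and plasma cell markers 2 were higher and 1 lower, with none higher without bulk tumor 417 or sorted library 83. Jchain, the joining chain of secreted antibodies, was 6.48-fold higher in bulk (adjusted p = 0.0334, and up to 0.0848 with bulk tumor 405 or 417 or sorted library 81, 83 or 84 left out), with 4.52, 0.751, 0.793 and 2.92 CPM in bulk tumors and 0.228, 0.744, 0.26 and 0.0998 CPM in sorted cells. Pax5, a transcription factor best known from B cells, had 7.67, 5.33, 9.07 and 10.4 CPM in bulk tumors and 14.9, 17.3, 16.1 and 17.4 CPM in sorted cells (-1.06 ± 0.25, adjusted p = 0.0118), while Cd79a, a B cell receptor chain, stayed at 0.523 CPM or less in every library.

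Vessel and stromal genes differed gene by gene. Of 17 endothelial markers none was higher and 2 were lower in bulk, while in CT2A 14 of 17 were higher, against 26.9% of all genes. The difference between the lines was negative for 4 of 17, against 5.8% of all genes, and positive for none. At an unadjusted p under 0.05 2 endothelial markers were higher, and DESeq2 called 2 higher. Pecam1, an adhesion protein of endothelium, had 23.4, 27.1, 28.2 and 28.8 CPM in bulk tumors and 12.4, 24.3, 56.5 and 28 CPM in sorted cells (-0.21 ± 0.39, adjusted p = 0.708). The endothelial list level was 4.25 to 4.55 in bulk tumors, against a low of 3.57 in sorted library 81 and a high of 5.18 in sorted library 83. Vwf, which encodes von Willebrand factor, had 49.7, 53.5, 70.5 and 50.2 CPM in bulk tumors and 57.2, 116, 299 and 135 CPM in sorted cells (-1.48 ± 0.43, adjusted p = 0.028). Its call and that of Ly6c1 ended without bulk tumor 405, 412, 414 or 417 and without sorted library 83 or 84, and that of Ly6c1 also without sorted library 81 (adjusted p up to 0.0735 and 0.124).

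Of 12 pericyte and smooth muscle markers 6 were higher and 2 lower, with 1 lower without bulk tumor 405, 414 or 417 or sorted library 82, 83 or 84. Abcc9, a potassium channel regulator of pericytes, had 13.4, 10.9, 10.1 and 7.95 CPM in bulk tumors and 0.57, 2.02, 1.82 and 1.4 CPM in sorted cells (2.83 ± 0.41, adjusted p = 0.00221), and Pdgfrb, the pericyte growth factor receptor, rose by 1.84 ± 0.31 (adjusted p = 0.0032). Acta2, the smooth muscle actin, was lower in bulk at -1.13 ± 0.23 (adjusted p = 0.00632). Of 13 tested fibroblast and meningeal markers 4 were higher in bulk and 1 lower. Col1a2, a chain of type I collagen, had 15, 37.6, 52 and 71.6 CPM in bulk tumors and 1.82, 2.66, 5.45 and 3.49 CPM in sorted cells (3.68 ± 0.53, adjusted p = 0.0021). Dcn, a proteoglycan of fibroblasts, rose by 3.46 ± 0.83 (adjusted p = 0.0128), although bulk tumor 405 at 1.7 CPM lay below sorted library 83 at 2.6 CPM. Col3a1, the type III collagen often made by the same cells, went the other way, with 327, 64.5, 166 and 168 CPM in bulk tumors and 1863, 1244, 1235 and 1529 CPM in sorted cells (-3.06 ± 0.45, adjusted p = 0.00226). Red cell transcripts separated the groups throughout: all 5 tested erythroid genes were higher in bulk, and Hba-a1, an alpha globin, had 19.2, 28.3, 31.3 and 28.4 CPM in bulk tumors and 0.228, 0, 0 and 0.499 CPM in sorted cells (7.05 ± 0.69, adjusted p = 4.18e-04).

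Matrix genes moved in both directions. Of 26 collagens and matrix genes 13 were lower and 8 higher in bulk. Vcan, the proteoglycan versican, had 12.7, 30.7, 19.5 and 21.1 CPM in bulk tumors and 358, 930, 960 and 336 CPM in sorted cells (-4.98 ± 0.49, adjusted p = 4.18e-04), and Postn, the matricellular protein periostin, fell by 2.50 ± 0.30 on the log2 scale (adjusted p = 0.00104). Tnc, the glycoprotein tenascin C, had 91, 33.5, 85.1 and 68 CPM in bulk tumors and 6.27, 17.1, 24.5 and 21.8 CPM in sorted cells (1.96 ± 0.44, adjusted p = 0.01). Thbs2, a thrombospondin, and Nid1, a basement membrane linker, rose by 2.11 ± 0.28 and 1.29 ± 0.28 (adjusted p = 0.00151 and 0.00787). In CT2A 20 of 25 genes of this list were lower and 2 higher, against 23% and 26.9% of all genes. The difference between the lines was positive for 9 of 26 genes and negative for 2, against 7.67% and 5.8% of all genes. For Thbs2 the fold change was 2.11 in GL261 and -1.66 in CT2A (difference 3.93, adjusted p = 2.61e-05).

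**Figure D4:**
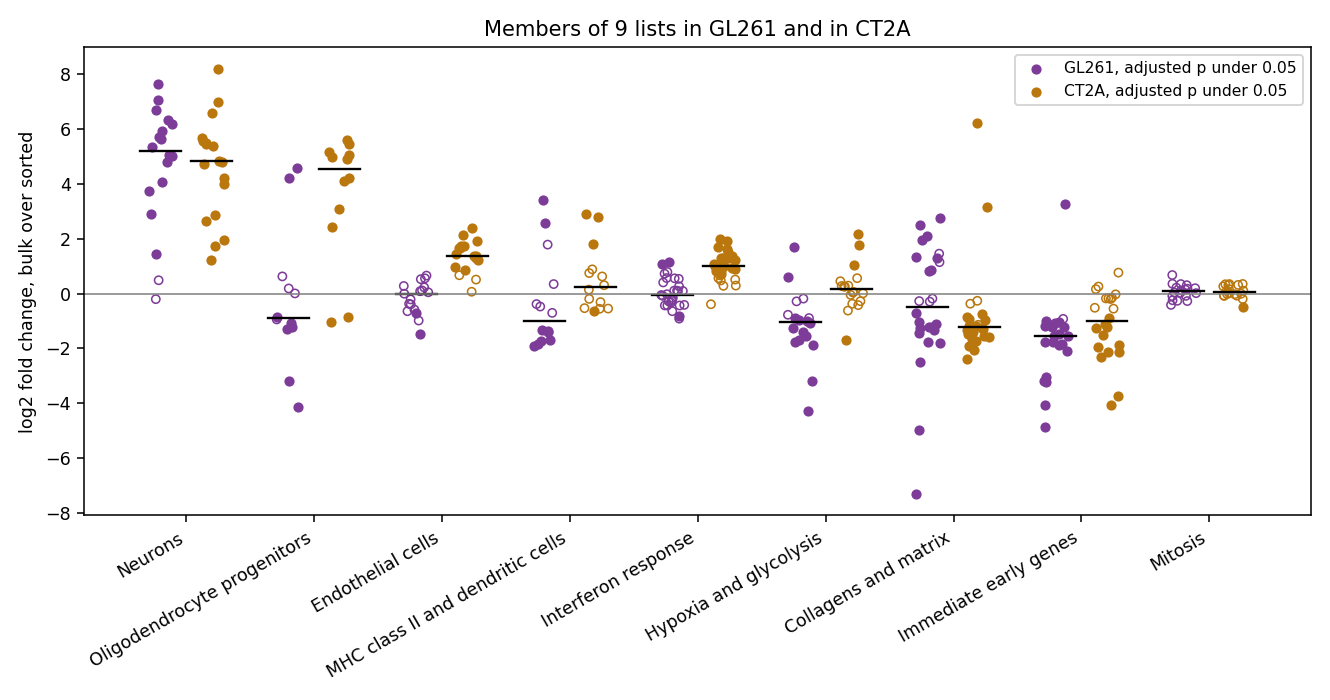
Log2 fold changes of bulk over sorted for the members of 9 lists in GL261 (purple, left) and CT2A (brown, right), with filled points at an adjusted p under 0.05, open points for the rest and a line at the median. Neuronal medians were 5.21 in GL261 and 4.83 in CT2A, progenitor medians were -0.90 in GL261 and 4.56 in CT2A, and hypoxia medians were -1.04 in GL261 and 0.16 in CT2A.

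None of 18 mitotic genes passed the test in either direction in edgeR, with a median log2 fold change of 0.08. At an unadjusted p under 0.05, 1 was higher and 0 lower, DESeq2 called 0 higher and 0 lower, and 1 was called higher in edgeR without bulk tumor 412. Mki67, the proliferation marker Ki-67, had 303, 143, 310 and 282 CPM in bulk tumors and 260, 263, 240 and 315 CPM in sorted cells (-0.09 ± 0.24, adjusted p = 0.801), and tumor 412 was the lowest of all libraries. Of 18 DNA replication genes 2 were higher and none lower, with 3 higher without bulk tumor 412 and 1 higher without any other 1 of the libraries. Gins2, a subunit of the replicative helicase, had 44.2, 32.5, 31.9 and 29 CPM in bulk tumors and 13, 16.9, 10.9 and 15.3 CPM in sorted cells (1.26 ± 0.21, adjusted p = 0.00313). Of 16 neural stem and glioma cell genes 3 were higher and 2 lower, with 1 lower without bulk tumor 412, 414 or 417 or sorted library 81 or 84. Sox9, a transcription factor of glial precursors and astrocytes, had 8.64, 31.9, 15.5 and 16.6 CPM in bulk tumors and 1.14, 1.81, 3.25 and 1.5 CPM in sorted cells (3.21 ± 0.50, adjusted p = 0.00259). In sorted CT2A cells it was at 90.4, 71.6 and 58.1 CPM, and the fold change there was -0.52, with a difference between the lines of 3.90 (adjusted p = 3.48e-04). Fabp7, a fatty acid carrier of radial glia, rose by 3.12 ± 0.35 (adjusted p = 7.62e-04). Vim, Nes, Cd44 and Sox2 were at -0.53, -0.05, -0.45 and -0.64 (adjusted p = 0.183, 0.917, 0.178 and 0.0745).

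Hypoxia and glycolysis genes were lower in bulk tumors for 12 of 18 members and higher for 2. Adm, the vasodilator adrenomedullin, had 3.57, 3.96, 4.05 and 5.06 CPM in bulk tumors and 131, 46.3, 54.8 and 85.2 CPM in sorted cells (-4.29 ± 0.37, adjusted p = 2.45e-04). Car9, a membrane carbonic anhydrase, had 15.5, 2.64, 9.47 and 7.66 CPM in bulk tumors and 75.7, 72.5, 68.7 and 92.2 CPM in sorted cells (-3.17 ± 0.46, adjusted p = 0.00219). Vegfa, the angiogenic factor, had 128, 65.8, 71 and 69.5 CPM in bulk tumors and 213, 294, 282 and 331 CPM in sorted cells (-1.78 ± 0.26, adjusted p = 0.00211). Bnip3, a mitophagy receptor, Kdm3a, a histone demethylase, and Egln3, an oxygen-sensing hydroxylase, fell by 1.88 ± 0.18, 1.68 ± 0.18 and 1.41 ± 0.18 on the log2 scale (adjusted p = 4.18e-04, 5.92e-04 and 0.00146). These 6 genes, picked from the lower members, did not overlap between the groups. Of all 18 members 12 lay lower in every bulk tumor than in any sorted library, against 16.3% of all genes tested. In CT2A 3 of 18 members were higher and 1 lower, against 26.9% and 23% of all genes. For 6 of 18 the difference between the lines was negative, against 5.8% of all genes. These included Adm at -6.34 (adjusted p = 8.34e-05) and Vegfa at -1.58 (adjusted p = 0.0188). The 2 members higher in GL261 bulk were Ndrg1 and Pfkp, at 1.72 ± 0.57 and 0.61 ± 0.19 (adjusted p = 0.0443 and 0.0366); neither was called without bulk tumor 412, 414 or 417 or sorted library 81 or 82 (adjusted p up to 0.106 and 0.0983).

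The windows before the starts of these genes were read for the core that hypoxia-inducible factors bind, ACGTG on either strand, in the 250 bases before the RefSeq start on GRCm38.p6. It was present for 11 of the 16 list members with a window (68.8%) and for 4998 of 27025 genes (18.5%). The windows of Bnip3 (chr7:138909507-138909756, minus strand), Car9 (chr4:43506776-43507025, plus strand) and Egln3 (chr12:54203875-54204124, minus strand) are shown with the core in capitals because all 3 genes fell and hold it; those of Adm and Kdm3a hold none.
Bnip3: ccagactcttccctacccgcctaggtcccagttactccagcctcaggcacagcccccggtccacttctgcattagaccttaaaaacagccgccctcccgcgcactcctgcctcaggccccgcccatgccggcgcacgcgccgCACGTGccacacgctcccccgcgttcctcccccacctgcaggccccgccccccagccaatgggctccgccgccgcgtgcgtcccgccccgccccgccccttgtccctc
Car9: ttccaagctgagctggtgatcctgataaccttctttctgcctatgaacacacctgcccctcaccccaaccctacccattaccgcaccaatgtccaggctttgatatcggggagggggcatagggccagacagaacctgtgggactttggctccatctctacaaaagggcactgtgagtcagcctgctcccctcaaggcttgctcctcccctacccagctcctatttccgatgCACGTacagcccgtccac
Egln3: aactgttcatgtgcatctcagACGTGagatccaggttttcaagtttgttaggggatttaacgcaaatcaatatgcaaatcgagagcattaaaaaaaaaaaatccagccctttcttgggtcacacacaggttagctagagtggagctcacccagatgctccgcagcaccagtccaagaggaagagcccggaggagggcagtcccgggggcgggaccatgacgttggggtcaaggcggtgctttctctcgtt
In Bnip3 the core is read on both strands over the same bases. A match is a description of letters and not of binding.

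Immediate early genes, which cells switch on within minutes of a stimulus, were lower in bulk for 20 of 22 members and higher for 1. Without bulk tumor 414 the lower members were 15. Fos, a subunit of the transcription factor AP-1, had 71, 38.7, 54.1 and 54.3 CPM in bulk tumors and 1452, 583, 652 and 881 CPM in sorted cells (-4.07 ± 0.36, adjusted p = 2.69e-04). Fosb, another subunit, had 7.12, 9.97, 6.69 and 11.1 CPM in bulk tumors and 289, 206, 211 and 288 CPM in sorted cells (-4.87 ± 0.25, adjusted p = 2.36e-05). Zfp36, which destabilizes cytokine mRNAs, Dusp1, a phosphatase of MAP kinases, and Jun, the partner of Fos, fell, at log2 fold changes of -3.21 ± 0.22, -3.05 ± 0.33 and -1.83 ± 0.24 (adjusted p = 7.87e-05, 6.51e-04 and 0.00167). The member higher in bulk was Egr3, a zinc finger factor that neurons also express, with 7.57, 65.2, 31.2 and 32.2 CPM in bulk tumors and 1.94, 2.98, 4.94 and 3.89 CPM in sorted cells (3.28 ± 0.61, adjusted p = 0.00469). In CT2A 12 of 22 were lower, against 23% of all genes, and none was higher. Fosb was at -4.05 and Fos at -3.75 there, and the differences between the lines were -0.65 and -0.16 (adjusted p = 0.186 and 0.866). The difference was negative for 2 of 22 members and positive for 1, against 5.8% and 7.67% of all genes. Zfp36 was at -0.90 (adjusted p = 0.0325), and the positive member was Egr3 at 2.67 (adjusted p = 0.0253). Dissociation and bead selection were applied to the sorted samples of both lines only, and their part cannot be told apart from that of the cohort. Heat shock genes did not share the pattern, with 3 of 13 lower and 2 higher (1 lower without bulk tumor 414 or 417 or sorted library 84, and 1 higher without bulk tumor 414 or 417 or sorted library 82 or 83); Dnaja1, a co-chaperone, rose by 1.01 ± 0.17 (adjusted p = 0.003).

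Of 18 immediate early genes with a promoter window, 2 held the CArG box of serum response factor and 2 the cyclic AMP element TGACGTCA (11.1% each), against 1.62% and 1.77% of all genes, each read on both strands. The 250-base windows of Fos and Fosb hold no exact match to either, and bases further upstream were not read. Those of Zfp36 (chr7:28379229-28379478, minus strand) and Dusp1 (chr17:26508473-26508722, minus strand) are shown, the first with its CArG box and the second with TGACGTCA in capitals, as 2 strongly lower genes with a match.
Zfp36: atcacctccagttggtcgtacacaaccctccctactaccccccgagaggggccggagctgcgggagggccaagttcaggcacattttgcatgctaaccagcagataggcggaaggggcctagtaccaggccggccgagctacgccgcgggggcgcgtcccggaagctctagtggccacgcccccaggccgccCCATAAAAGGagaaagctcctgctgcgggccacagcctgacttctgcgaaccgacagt
Dusp1: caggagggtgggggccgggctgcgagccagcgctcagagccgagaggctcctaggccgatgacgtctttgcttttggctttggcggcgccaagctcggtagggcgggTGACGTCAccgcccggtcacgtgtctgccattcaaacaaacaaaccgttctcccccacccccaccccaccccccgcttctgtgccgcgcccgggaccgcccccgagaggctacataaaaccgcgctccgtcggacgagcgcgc

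Interferon-stimulated genes were near balance, with 2 of 28 higher, 1 lower and a median of -0.04 (1 higher without bulk tumor 414 or 417 or sorted library 83 or 84), while in CT2A 20 of 28 were higher and none lower. Among all genes tested in CT2A 26.9% were higher and 23% lower. The difference between the lines was negative for 7 of 28 genes, against 5.8% of all genes, and positive for none. Isg15, a ubiquitin-like modifier, had 136, 82.8, 174 and 145 CPM in bulk tumors and 57, 59.2, 54 and 67.6 CPM in sorted cells (1.14 ± 0.22, adjusted p = 0.00537). Irgm1, an immunity-related GTPase, was at -0.82 ± 0.28 (adjusted p = 0.0488), a call kept in 1 of 8 fits with 1 library left out. Of 26 chemokines and cytokines 6 were higher and 5 lower, with 3 lower without bulk tumor 414. Cx3cl1, a membrane-bound chemokine of neurons, had 17.2, 319, 139 and 115 CPM in bulk tumors and 2.73, 5, 5.07 and 2.29 CPM in sorted cells (5.26 ± 0.83, adjusted p = 0.0027). Cxcl14 and the alarmin Il33 rose by 3.76 ± 0.72 and 2.83 ± 0.48 (adjusted p = 0.00524 and 0.00327). Il1b and Osm, cytokines of activated myeloid cells, fell by 1.71 ± 0.37 and 2.00 ± 0.35 on the log2 scale (adjusted p = 0.00858 and 0.00363).

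The following long noncoding RNAs were measured only in the second quantification, by RSEM. Xist, the RNA that coats the inactive X chromosome of female cells, had 150, 745, 409 and 441 CPM in bulk tumors and 5.51, 62.1, 91.1 and 60.7 CPM in sorted cells (2.94 ± 0.75, adjusted p = 0.0155). Its order among bulk tumors was that of tumor 405 lowest and tumor 412 highest, and library 81 had the least of it among sorted cells. Sorted CT2A cells had 1452, 1953 and 1733 CPM. H19, an imprinted growth-linked RNA, had 2459, 1001, 1768 and 1745 CPM in bulk tumors and 12213, 7810, 5506 and 12017 CPM in sorted cells (-2.50 ± 0.37, adjusted p = 0.00145). Meg3, an imprinted RNA abundant in neurons, had 177, 3194, 1590 and 1098 CPM in bulk tumors and 0.24, 1.6, 2.09 and 1.07 CPM in sorted cells (10.20 ± 1.07, adjusted p = 2.68e-04). These 3 were chosen after their values were seen. Y-linked genes were at 0.114 CPM or less in the RSEM values of these libraries, while the Salmon values gave Kdm5d, a Y-linked demethylase, 7.97 to 34.7 CPM over the 8 libraries (0.82 ± 0.36, adjusted p = 0.11).

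By chromosome, the median log2 fold change of tested genes, less that of all autosomal genes, was highest on chromosomes 4 and 5 (0.24 and 0.20) and lowest on chromosomes 14 and 8 (-0.24 and -0.19). In CT2A the same values were -0.02, 0.05, 0.29 and -0.00. Over 5 equal bins of effective transcript length, the median ran from -0.02 to 0.04, and the percent of genes called higher in bulk ran from 14.3% among the shortest genes to 24.8% among the longest. Of 14564 genes tested in both lines, 2949 were higher and 2032 lower in GL261 bulk. In CT2A 74.6% of the first and 53.3% of the second were called in the same direction, which is 56% and 32.4% of the CT2A calls. Over all 14564 genes 27% were higher and 23% lower in CT2A bulk. Of the GL261 calls 5.63% of the higher and 6.74% of the lower were opposite in CT2A. Cohort, read length and sort changed together in both lines, so their part in these shares cannot be told apart.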

How the data were processed

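RNA was measured in 8 libraries of 23. The authors deposited Salmon estimated counts and TPM per transcript (version not given in the sources used here), and RSEM 1.3.3 expected counts per gene from STAR 2.7.7a alignments; DESeq2 1.30.1 is also named in the submitters' processing notes. Estimated counts were summed per gene and rounded. Genes with a mean TMM-normalized count over 10 were tested with edgeR 4.0.16 (R 4.3.3, quasi-likelihood, robust, Benjamini-Hochberg, threshold 0.05), bulk against sorted. CT2A (7 libraries) was fitted the same way, and the line difference over 15 libraries. RSEM counts, DESeq2 1.42.0, other scalings, filters, a length offset, thinned bulk reads, a fold minimum and each library left out were alternatives. Scripts were tested on simulated data. Members and lists were chosen with earlier results of these data known. Named genes were the 10 highest and lowest folds at 20 CPM or more without overlap, up to 5 per direction of a list by p, fixed markers, and leading genes of the outside rules; some were left out for length. Neurosphere-derived CT2A libraries were not tested. The reporter used for the sort was not checked, and some genes that the rule names are not reported here. Standard errors come from the same fits as the p-values and include the spread between libraries. The floor of 3 counts covers counting error only.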

Additional observations from a re-analysis of the deposited data

Results flagged for a closer look

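In 35 of 121 of the named genes the bulk over sorted fold change differed between GL261 and CT2A (edgeR test of that difference, adjusted p under 0.05). Among all 15845 genes tested, 7.67% had a positive and 5.8% a negative difference. Many named genes were chosen by small p or extreme fold in GL261. That comparison enters this test, so 35 of 121 cannot be read against these shares. Differences are given as GL261 minus CT2A on the log2 scale. Among genes of glial lineage the differences were S100b -2.68, Mog -7.79, Cspg4 -2.19, Olig1 -5.25, Olig2 -5.62, Gpr17 -9.63, Bcas1 -3.33 and Sox10 -6.06. Among immune genes they were Cd14 -1.55, H2-Eb1 -1.55, H2-DMa -2.15, Pax5 -3.83, Irgm1 -1.70, Cd47 -0.74 and Cd274 -1.88. The other negative differences were Ly6c1 -2.30, Adm -6.34, Kdm3a -1.11, Vegfa -1.58, Cnmd -10.17, Vcan -3.29, Acan -13.08, Zfp36 -0.90, Impg1 -12.00, Grap2 -6.04 and C7 -4.44. Cnmd, Acan, Impg1, C7 and Pax5 were under the minimum count in CT2A and have no fold change there, so that their differences were fitted against counts at or near 0 and are not sizes. Positive differences were Pdgfrb 3.37, Sox9 3.90, Thbs2 3.93, Tnc 2.37, Nid1 2.77, Nt5e 2.22, Cx3cl1 4.68, Egr3 2.67 and Dnaja1 1.30.

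A library far from the other 3 of its group was sought in 66 sets of list levels, where 3 were found, and in 242 sets of gene levels, where 19 were found; chance gives about 1 in 20. Bulk tumor 412 had the highest ependymal list level, 2.14, sorted library 81 the lowest T and NK cell level, 0.74, and bulk tumor 405 the lowest fibroblast level, 2.75. Tumor 412 stood above the other bulk tumors in Ppp1r1b (352 CPM), Drd1 (68.5 CPM), Tac1 (69 CPM), the ciliary factor gene Foxj1 (16.5 CPM), the choroid plexus gene Ttr (10.5 CPM), the smooth muscle gene Myh11 (9.74 CPM) and Impg1 (0.91 CPM), and below them in Ly6c1 (59.9 CPM) and Mki67 (143 CPM). Tumor 405 stood above the others in Vegfa (128 CPM) and the macrophage gene Chil3 (8.72 CPM) and below them in the globin gene Hbb-bs (23.2 CPM). Among sorted cells, library 81 stood above the others in H2-D1 (2816 CPM), Dusp1 (457 CPM) and Hbb-bs (1.6 CPM) and below them in Impg1 (7.18 CPM). Library 83 was lowest in H2-Eb1 (636 CPM), and library 82 was highest in Neurod6 and Lamp5, at 0.106 CPM each.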

How the results depend on the processing

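Of the 121 named genes followed over 18 settings, no call reversed in any setting, and 72 genes kept their side of the threshold in all of them. Some genes given above, among them Egln3, Gins2, Tap1, Tnfrsf18 and Xist, were not followed in this way. Of all genes, 24 were called in opposite directions from Salmon and RSEM counts. With a minimum absolute log2 fold change of 1 the GL261 counts were 1859 higher and 453 lower, and with all 6 groups in 1 fit 3665 were lower. With 1 library left out, GL261 counts ran from 2514 to 3754 higher and from 1335 to 2467 lower, CT2A counts from 3165 to 4178 and from 2291 to 3698, and line differences from 787 to 1334 positive and from 644 to 1161 negative. Outside rules at 20 and 0.2 CPM left 1 called tumor cell gene and 0 called host genes of 2 tested, and host genes with like folds in both quantifications, a setting chosen after seeing the data, left 15. Bulk minus sorted list levels with a pseudocount of 0.1 were 3.61 for cortical neurons, 4.25 for interneurons, -0.20 for progenitors, -0.14 for class II, 1.32 for T and NK cells, 1.02 for B cells and for fibroblasts, 4.27 for erythroid cells, 0.58 for stem cell genes and 0.98 for histones; with TPM they were 3.57 for erythroid cells, 0.50 for stem cell genes and 0.82 for histones. The cause was not tested. No paired analysis was possible because bulk and sorted libraries share no replicate numbers. Sorted depth limits genes near 0, for which 3 counts per library was the floor.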
